A study of Mus musculus with 18 samples.

Results

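The comparison set 3 arrays of control hippocampus against 3 arrays of control cortex, which were chosen by their titles and make up 6 of the 18 arrays in the series. All came from male CD-1 mice of 16 days of age, and the RNA was total RNA of frozen tissue, 100 ng per sample, read on Illumina Mouse-6 bead arrays. The remaining 12 arrays held hippocampus and cortex of mice exposed for 2 weeks, starting at postnatal day 2, to chronic consistent hypoxia (CCH) or chronic intermittent hypoxia (CIH), with 3 arrays for each tissue and exposure. The labels call the controls only controls for those treatments, give no dissection boundaries, and do not say that the replicates came from separate animals, so p-values measure the spread between these samples, which may be technical.

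The hippocampus is a folded, single-layered part of the cortical sheet. Its pyramidal neurons lie in the CA fields, numbered from CA1, and its granule cells lie in the dentate gyrus, where new neurons are still being added after birth. The neocortex is a sheet of stacked layers: neurons of the upper layers mostly connect cortical areas with each other, and those of the deep layers send axons to the thalamus, brainstem and spinal cord. Each of these cell classes carries transcription factors, adhesion molecules, receptors and calcium-binding proteins that are used to tell them apart in tissue sections. In bulk tissue, fewer cells of a type and less RNA per cell cannot be told apart.

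Promoters of 4 genes that mark the classes compared here are printed because their genes differed between the tissues in opposite directions: C1ql2 of dentate granule cells and Fibcd1 of CA1 neurons were higher in hippocampus, and Hs3st2 and Cux2 of neocortical neurons were lower. Each is 250 bases before to 50 bases after the annotated start, written 5′ to 3′ on the gene's strand from RefSeq, build GRCm38.p6. Capitals mark 2 motifs searched on both strands, the E-box CANNTG bound by neurogenic helix-loop-helix factors and the cyclic AMP response element TGACGTCA, which did not overlap here.
C1ql2 (chr1:120340332-120340631, plus strand): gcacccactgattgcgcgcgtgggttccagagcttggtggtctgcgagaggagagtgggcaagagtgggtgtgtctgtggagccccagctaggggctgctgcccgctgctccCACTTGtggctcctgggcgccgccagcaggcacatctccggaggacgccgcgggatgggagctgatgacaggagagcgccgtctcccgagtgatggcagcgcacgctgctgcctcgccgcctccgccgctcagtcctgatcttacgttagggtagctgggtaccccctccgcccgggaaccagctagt
Fibcd1 (chr2:31845956-31846255, minus strand): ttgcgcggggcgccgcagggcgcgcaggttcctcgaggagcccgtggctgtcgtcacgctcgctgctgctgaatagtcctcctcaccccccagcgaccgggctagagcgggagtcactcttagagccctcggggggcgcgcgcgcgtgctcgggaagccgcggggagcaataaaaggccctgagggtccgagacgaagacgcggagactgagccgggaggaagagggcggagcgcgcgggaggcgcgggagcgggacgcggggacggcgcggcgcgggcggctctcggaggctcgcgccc
Hs3st2 (chr7:121392046-121392345, plus strand): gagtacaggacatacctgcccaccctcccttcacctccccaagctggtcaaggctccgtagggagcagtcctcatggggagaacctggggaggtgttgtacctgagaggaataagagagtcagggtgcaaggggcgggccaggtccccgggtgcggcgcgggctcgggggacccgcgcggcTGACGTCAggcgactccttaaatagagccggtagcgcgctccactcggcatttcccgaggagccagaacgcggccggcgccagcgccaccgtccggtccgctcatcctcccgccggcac
Cux2 (chr5:122049802-122050101, minus strand, the first of 2 listed starts): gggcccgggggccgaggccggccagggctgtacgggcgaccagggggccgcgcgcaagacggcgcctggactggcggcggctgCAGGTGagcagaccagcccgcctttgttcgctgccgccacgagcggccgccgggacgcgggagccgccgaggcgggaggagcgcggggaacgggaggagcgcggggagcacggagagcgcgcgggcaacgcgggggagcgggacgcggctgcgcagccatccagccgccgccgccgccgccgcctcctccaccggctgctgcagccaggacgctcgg
The C1ql2 and Cux2 windows each held 1 E-box and the Hs3st2 window held 1 cyclic AMP response element, while neither motif was found in the Fibcd1 window. An E-box occurs in 72.3% and the cyclic AMP response element in 1.79% of the 32851 promoters of the same length in that table, so the letters alone are a description of these windows. How the motifs are shared among the genes that rose or fell was not tested.

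Levels are log2 normalized intensities, and a difference is hippocampus minus cortex on that log2 scale with its standard error. Calls were made at adjusted p-values under 0.05 in the limma fit over all 18 arrays, with Benjamini-Hochberg adjustment over the 14664 tested probes. Of those, 1711 were called (11.7%): 808 were higher in hippocampus (5.51%) and 903 were lower (6.16%). With arrays scaled to their medians in place of quantile normalization, 956 were higher and 688 lower. Called differences were small for most probes, with a median size of 0.46, and 85 probes (0.58%) were at least 2-fold higher and 123 (0.839%) at least 2-fold lower in hippocampus. Gene names reached 3979 of the genes measured, of which 260 were called higher (6.53%) and 192 lower (4.83%), and the median difference over those genes was 0.02. Of the 1711 called probes, 1707 differed in the same direction on each of the 3 slides. The calls came from these same arrays, so that count is no separate support. The same share over all tested probes was not counted. With only the 6 control arrays in the fit, 1135 probes were called, and 33 of the 109 calls on genes named below ended.

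**Figure D1:**
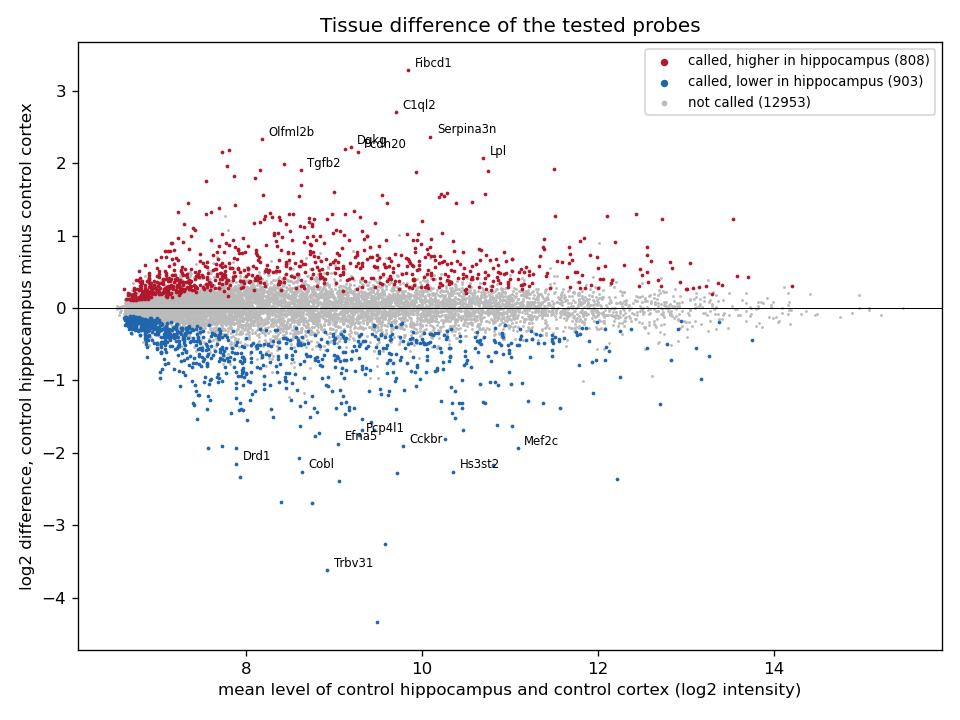
Mean log2 level of the 6 control arrays (horizontal) against the log2 difference, hippocampus minus cortex (vertical), for the 14664 tested probes; red points were called higher and blue points lower in hippocampus, and gray points were not called. The labelled genes are the 8 largest named rises, led by Fibcd1 at 3.29, and the 8 largest named falls, led by Trbv31 at −3.62.

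The arrays of a tissue resembled each other more than those of the other tissue. The lowest correlation of an array with its own group was 0.9844 for hippocampus and 0.9902 for cortex, and the highest with the other tissue was 0.9815. Hippocampus arrays had 12248 to 13592 detected probes and cortex arrays 13089 to 14527. Raw 18S ribosomal RNA signal was 4756 to 9525 on hippocampus arrays and 10916 to 12879 on cortex arrays, so it moved with tissue in controls. The tissues overlapped under CCH (7041.9 to 8627.2 in hippocampus, 5132.3 to 8551.7 in cortex). They also did under CIH (7991.4 to 11502.3 in hippocampus, 9416.5 to 12008.7 in cortex). The part of 18S signal in the results was not tested. Because a group sat at 1 and the same position on every slide, effects of position cannot be told apart from those of tissue. Xist, the X inactivation transcript, was at 9.36 to 10.18 on 5 arrays labelled as male exposed mice (numbers 2 and 3 of CCH cortex, 2 of CIH cortex, 3 of CCH hippocampus and 2 of CIH hippocampus), against 6.53 to 6.57 on all 6 control arrays.

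Genes that mark the pyramidal neurons of the CA fields were higher in hippocampus in every case measured. Of 30 listed genes, 7 had a named probe and 6 passed the detection filter: Fibcd1, Bok, Hpca, Zbtb20, Amigo2 and Iyd. All 6 were called higher, with a median difference of 1.23. Over all named genes 6.53% were called higher and 4.83% lower, with a median of 0.02, and the counts of the lists that follow stand beside those shares. Members and lists were chosen with earlier results of these data known, so the counts are descriptions and no independent support. Listed genes detected on control arrays of a single tissue, such as Iyd, Il16, Cux1 and Ido1, had their direction fixed by that. Fibcd1, a chitin-binding receptor used as a CA1 marker, had levels of 11.02, 11.66 and 11.77 on hippocampus arrays and of 8.22, 8.60 and 7.77 on cortex arrays. The tissues did not overlap, and the difference of 3.29 ± 0.25 (SE, adjusted p 8.16e-07) was 9.75-fold, the largest rise of any named gene. The tissues did not overlap for 26.8% of all tested probes, and the choice of the largest rises and falls required it.

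Bok, a BCL2 family member found in CA3 neurons, had levels of 11.44, 11.48 and 11.60 in hippocampus and of 9.90, 9.99 and 9.90 in cortex, a difference of 1.58 ± 0.10. Hippocalcin (Hpca), a neuronal calcium sensor, was bright in both tissues, at 12.99, 13.23 and 13.02 in hippocampus and 11.73, 11.98 and 11.64 in cortex, so the tissues differed by 1.297 ± 0.10 on top of a high cortical level. Amigo2, a leucine-rich repeat adhesion protein of CA2 and CA3, had 8.65, 9.16 and 9.29 in hippocampus against 7.91, 7.96 and 8.03 in cortex. Hippocampus array 1 lay below the other two, and the difference was 1.07 ± 0.16. Iyd, an iodotyrosine deiodinase, was detected on 3 of 3 hippocampus arrays and 0 of 3 cortex arrays, at least 1.18-fold higher in hippocampus (adjusted p 0.000109).

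Dentate granule cell genes gave the next highest median among lists with at least 3 measured genes. Of 30 listed, 11 had a named probe and 7 passed the filter, and 4 of the 7 were called higher and 0 lower, with a median of 0.51. C1ql2, a secreted synaptic organizer of mossy fibres, had 10.98, 10.97 and 11.22 in hippocampus and 8.29, 8.24 and 8.54 in cortex. Its difference of 2.70 ± 0.16 (adjusted p 6.71e-08) was nearly the same on each slide, at 2.69, 2.73 and 2.68. Prox1, the homeobox factor that sets granule cell identity, had 8.62, 8.91 and 8.79 in hippocampus and 7.003, 6.96 and 6.89 in cortex, a difference of 1.82 ± 0.12 (adjusted p 1.13e-07).

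Il16, a cytokine precursor used as a granule cell marker, was detected on no cortex array. It had 8.25, 8.01 and 7.94 in hippocampus against 6.61, 6.60 and 6.63 in cortex, so hippocampus was at least 2.56-fold higher (adjusted p 1.53e-08). Dock10, a guanine nucleotide exchange factor, rose by 0.51. That call ended without hippocampus array 3 or cortex array 1 (adjusted p 0.0503 to 0.0595) and with only the 6 control arrays in the fit (adjusted p 0.0567). Maml2 (0.47), Ntng1 (−0.16) and Marcksl1 (−0.38) were not called. Calb1, Npnt, Rfx3 and Tdo2, also on the list, were below the detection filter.

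The hippocampal patterning list, mostly transcription factors with the Wnt coreceptor Lrp6 and the cadherin Cdh8, was higher or not called. Of its 8 measured genes, 4 were called higher and 0 lower, with a median of 0.37. Besides Prox1, Zbtb20, a zinc finger repressor required for CA1 identity in mice, had 9.20, 9.34 and 9.45 in hippocampus and 8.23, 8.22 and 8.04 in cortex, a difference of 1.16 ± 0.18. Nfix, a nuclear factor I family member, rose by 0.64, a call that ended without hippocampus array 2 (adjusted p 0.0519) and with only the control arrays (adjusted p 0.056). Tcf4, an E protein that pairs with neurogenic factors, rose by 0.50. Lmo2 (−0.06), Lrp6 (0.05) and Cdh8 (0.25) were not called.

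**Figure D2:**
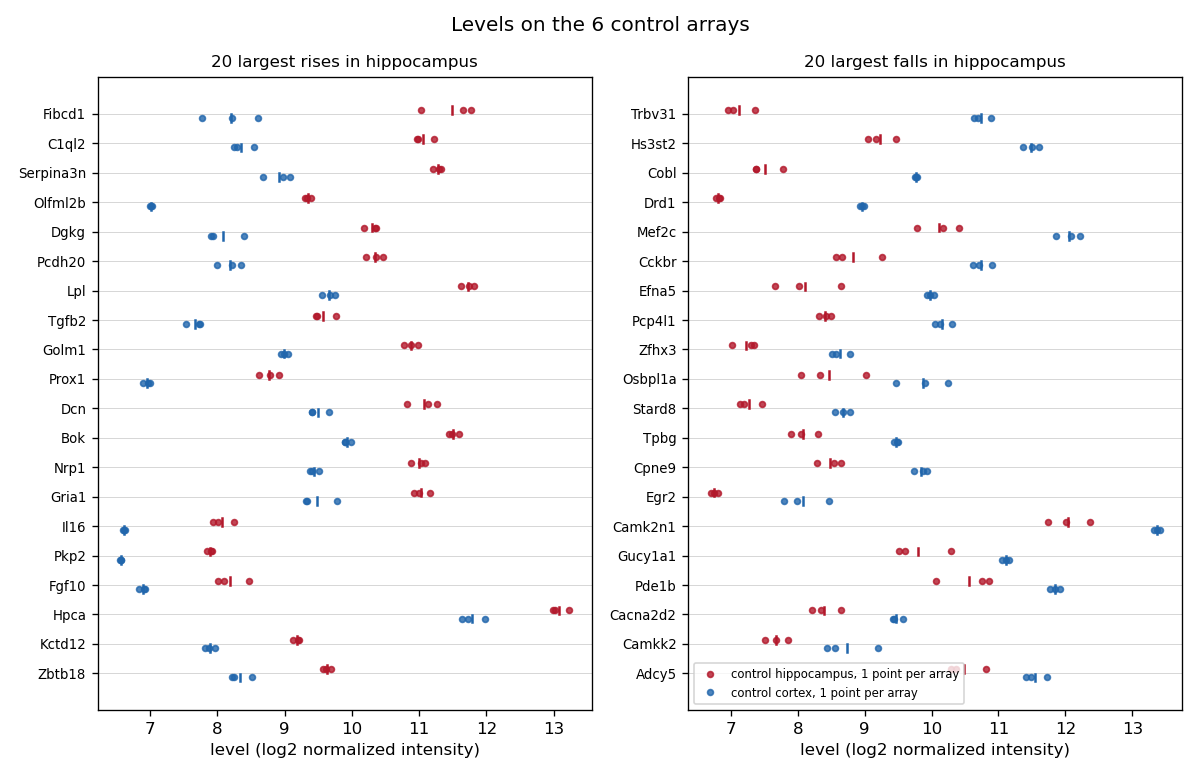
Log2 normalized intensity (horizontal) of the 20 named genes with the largest rises and the 20 with the largest falls in control hippocampus, by gene from top to bottom; each point is 1 array, red for hippocampus and blue for cortex, and bars are means of 3 arrays. Within every gene the red and blue points are apart, as the choice of these genes required.

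The 20 largest named rises, among them Fibcd1, Bok, Hpca, C1ql2, Prox1 and Il16 of the regional lists, ranged from 1.29 to 3.29, with adjusted p of 0.000306 or less in the limma fit. Serpina3n, a serine protease inhibitor, had 11.21, 11.29 and 11.33 in hippocampus and 8.97, 9.07 and 8.68 in cortex, a difference of 2.37 ± 0.15. Olfml2b, an olfactomedin-like matrix protein, had 9.39, 9.30 and 9.34 in hippocampus and 7.02, 7.02 and 6.9955 in cortex, with the lowest adjusted p of all tested probes (3.52e-11). Tgfb2, a growth factor, differed by 1.91, and Fgf10, a fibroblast growth factor, by 1.302. Decorin (Dcn), a matrix proteoglycan, had 10.82, 11.13 and 11.27 in hippocampus against 9.40, 9.66 and 9.41 in cortex. Both of its probes were called, at 1.58 and 1.38.

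Lipoprotein lipase (Lpl), which hydrolyses triglycerides, had 11.63, 11.74 and 11.81 in hippocampus and 9.75, 9.68 and 9.56 in cortex, a 4.18-fold difference. Diacylglycerol kinase gamma (Dgkg) differed by 2.22, with 10.18, 10.35 and 10.36 in hippocampus and 7.93, 8.40 and 7.91 in cortex. Golm1, a Golgi membrane protein, differed by 1.88, Kctd12, an auxiliary subunit of GABA-B receptors, by 1.295, and Zbtb18, a transcriptional repressor, by 1.29. The second probe of Zbtb18 differed by 0.55 and was not called (adjusted p 0.123). Plakophilin 2 (Pkp2), a desmosomal plaque protein, was detected on 3 of 3 hippocampus arrays and no cortex array, at least 2.27-fold higher.

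The falls were led by Trbv31, a T cell receptor beta variable segment, at −3.62 ± 0.13, with 6.95, 7.03 and 7.37 in hippocampus against 10.69, 10.64 and 10.88 in cortex. Its name rests on the number in the probe identifier alone, and what transcript the probe reads in brain was not tested. The next, Hs3st2, a heparan sulfate sulfotransferase counted here among the deep layer genes, had 9.17, 9.04 and 9.47 in hippocampus against 11.37, 11.50 and 11.60 in cortex. The difference of −2.26 ± 0.12 (adjusted p 3.04e-08) made hippocampus 4.79-fold lower. Cobl, an actin nucleator of dendrites, differed as much, at −2.26, with 7.38, 7.37 and 7.77 in hippocampus and 9.75, 9.77 and 9.78 in cortex.

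Mef2c, a MADS-box factor of cortical excitatory neurons, had 10.17, 9.78 and 10.40 in hippocampus and 12.22, 12.09 and 11.86 in cortex, a difference of −1.94 ± 0.17 (adjusted p 2.86e-06). Cckbr, the receptor for cholecystokinin, differed by −1.91, with 8.66, 8.57 and 9.26 in hippocampus and 10.61, 10.90 and 10.70 in cortex. Further falls were those of Camk2n1, an inhibitor of calmodulin kinase II, at −1.33, Gucy1a1, a subunit of soluble guanylate cyclase, at −1.31, Pde1b, a calmodulin-dependent phosphodiesterase, at −1.28, Cacna2d2, a calcium channel auxiliary subunit, at −1.08, Camkk2, the kinase upstream of calmodulin kinases, at −1.05, and Adcy5, an adenylyl cyclase, at −1.05. The probes of Gucy1a1 gave unequal sizes, the second falling by 0.32. Pcp4l1 (−1.75), Zfhx3 (−1.41), Osbpl1a (−1.41), Tpbg (−1.39) and Cpne9 (−1.36) complete this set with Efna5, Stard8, Drd1 and Egr2, which are described with their groups.

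Upper layer genes of the neocortex were lower in hippocampus. Of 25 listed, 10 had a named probe and 7 passed the filter, and 6 of the 7 were called lower and 0 higher, with a median of −0.45. Stard8, a GTPase-activating protein, had 7.14, 7.19 and 7.46 in hippocampus and 8.55, 8.68 and 8.79 in cortex, a difference of −1.40 ± 0.09 (adjusted p 1.21e-07). Cux2, a homeobox factor of layers above layer V, had 6.90, 7.24 and 7.15 in hippocampus and 8.28, 7.71 and 8.28 in cortex, a difference of −0.99 ± 0.16. Its relative Cux1 was detected on 0 of 3 hippocampus arrays and on 3 of 3 cortex arrays, at least 1.27-fold lower in hippocampus. Rorb, the orphan receptor that marks layer IV, fell by 0.46.

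Satb1, a chromatin organizer, fell by 0.44, and Igfbp6, an insulin-like growth factor binding protein detected on 1 of 3 hippocampus and 3 of 3 cortex arrays, fell by 0.30. The Satb1 call ended without hippocampus array 2, cortex array 2 or cortex array 3 (adjusted p 0.0818 to 0.116). With only the 6 control arrays both calls ended (adjusted p 0.0506 for Satb1 and 0.0566 for Igfbp6). Nectin1 differed by 0.14 and was not called. Mdga1 and Unc5d, also listed, were below the filter.

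Deep layer genes did not share a direction. Of 8 measured, 2 were called higher and 1 lower, with a median of 0.02. Hs3st2 was the one that fell. Bcl11b, a zinc finger factor that specifies corticospinal neurons and is also made in hippocampal neurons, had 11.76, 11.71 and 11.53 in hippocampus against 11.004, 11.35 and 11.20 in cortex, a rise of 0.48 ± 0.08. Nr4a2, an orphan nuclear receptor of the subplate and claustrum that is also induced by activity, rose by 0.69, with a call that ended without hippocampus array 1 or 3 or cortex array 1 or 3 (adjusted p 0.065 to 0.0975). With only the control arrays the calls of both ended (adjusted p 0.0518 for Bcl11b and 0.0659 for Nr4a2). The second probe of Nr4a2 was not called. Etv1 differed by 0.01 ± 0.30, Sulf1 by −0.38 and Parm1 by 0.13, and none of these was called.

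**Figure D3:**
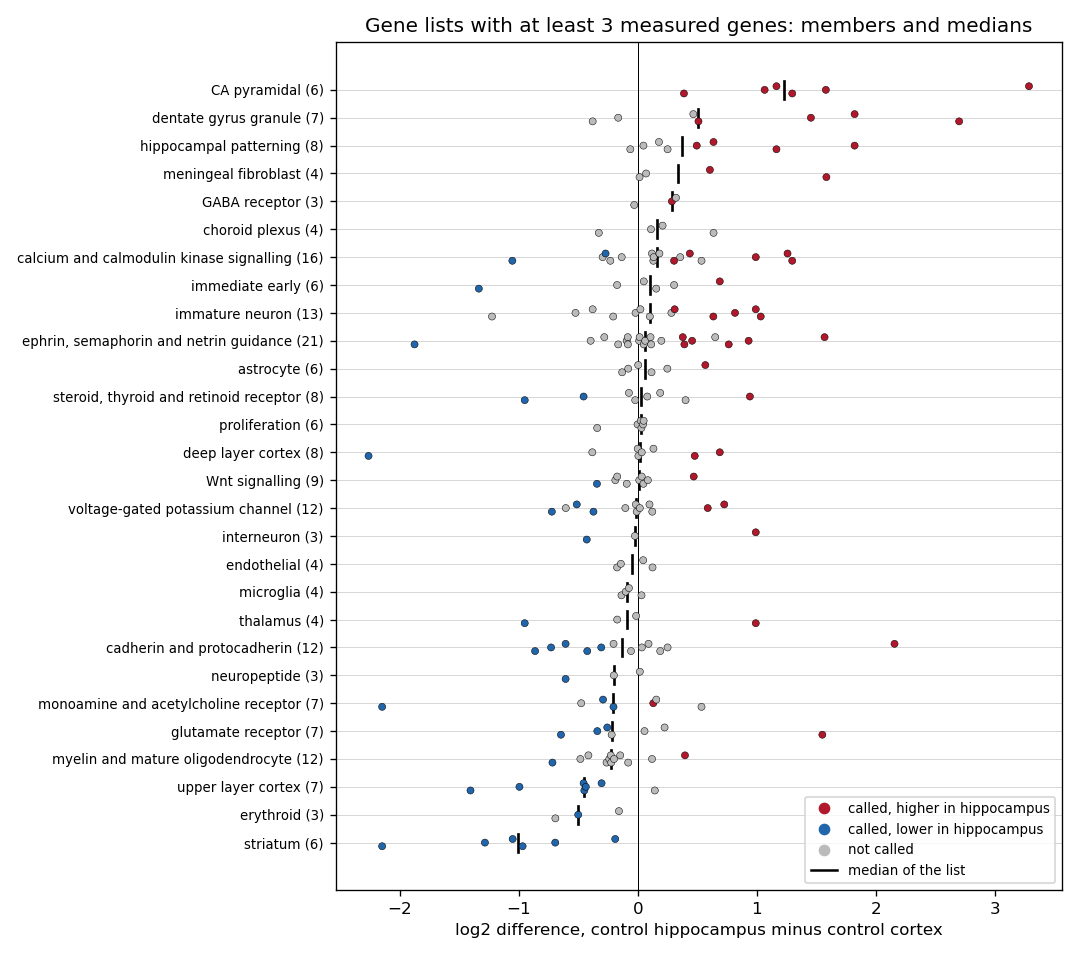
Log2 differences, hippocampus minus cortex (horizontal), of the measured members of each gene list with at least 3 of them, 1 point per gene, ordered by list median (black bar); red points were called higher, blue lower, gray not called, and the number measured is in brackets. CA pyramidal genes have the highest median, 1.23, and striatal genes the lowest, −1.01.

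Genes that mark the striatum, which lies beneath the cortex, were lower in hippocampus as a group. Of 20 listed, 9 had a named probe and 6 passed the filter. All 6 were called lower (all named genes: 4.83%), with a median of −1.01. Drd1, the D1 dopamine receptor, which is strongest in striatum and also made in cortex, had 6.78, 6.83 and 6.83 in hippocampus against 8.99, 8.93 and 8.96 in cortex. Its difference of −2.15 ± 0.08 (adjusted p 4.5e-10) was 4.43-fold, and the tissues did not overlap, as the choice of the largest falls required. Ido1, a tryptophan-degrading enzyme, was detected on 0 of 3 hippocampus and 3 of 3 cortex arrays, at least 1.70-fold lower in hippocampus.

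Pde1b and Adcy5, given above, belong to this group, as do Foxp1, a forkhead factor of striatum and upper cortex, at −0.69, and Rgs2, a regulator of G protein signalling detected on 1 of 3 hippocampus and 3 of 3 cortex arrays, at −0.19. The calls of Foxp1 and Rgs2 ended with only the control arrays (adjusted p 0.0556 and 0.0701), and that of Rgs2 also under median scaling (adjusted p 0.0898). Adora2a, Gpr6 and Six3, which mark striatal neurons more narrowly, were on the array and below the detection filter. What part RNA of striatum plays in the cortex arrays was not tested. Of the thalamic genes, 4 were measured, with Rora, an orphan nuclear receptor also made in cortical layer IV, lower (−0.95 ± 0.20) and Calb2 higher in hippocampus, while Tcf7l2 (−0.17) and Adarb1 (−0.01) were not called.

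Markers of other cells that a dissected tissue can hold differed in places. None of 4 choroid plexus, 4 microglial, 4 endothelial and 6 proliferation genes was called, where 11.4% of named genes were called. Choroid plexus signal was uneven among hippocampus arrays: Clic6, a chloride channel protein, had 8.79, 6.74 and 8.99 in hippocampus against 7.35, 7.80 and 7.46 in cortex, and Enpp2, which makes lysophosphatidic acid, had 10.04, 7.66 and 9.39 in hippocampus against 9.48, 9.24 and 9.35 in cortex. Hippocampus array 2 was low for both and lay below every cortex array, and its levels of the 4 genes averaged 6.90 against up to 8.10 on another hippocampus array. Mia, the single ependymal gene measured, rose by 0.69. Of 4 fibroblast genes of the meninges, 2 were called higher, Dcn and Serpinf1, a secreted neurotrophic factor, while Col1a1 (0.07) and Slc22a6 (0.01) were not. The Serpinf1 difference of 0.61 lost its call without hippocampus array 2 or 3 or cortex array 1 or 3 (adjusted p 0.0751 to 0.11) and with only the control arrays (adjusted p 0.0536).

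Glial and blood genes followed. Of 6 astrocyte genes, Aqp4, the water channel of astrocyte endfeet, was called higher at 0.57, and Gfap at 0.25 was not. The Aqp4 call ended without hippocampus array 1 or 2 or cortex array 1 or 3 (adjusted p 0.0507 to 0.0895). Of 12 myelin genes, 10 lay below 0 and the median was −0.22, but Trf (transferrin) alone was called lower, at −0.72, and Padi2, a peptidylarginine deiminase, was called higher, at 0.40. The Trf call ended under every omission of a control array except hippocampus array 2 (adjusted p 0.0699 to 0.134), and the Padi2 call ended without hippocampus array 2 or cortex array 3 (adjusted p 0.0736 to 0.0751). Mog (−0.48), Cnp (−0.26) and Mobp (−0.23) were not called. All 3 hemoglobin genes lay below 0, and Hba-a1, an alpha globin, was called, at −0.50. That call ended without hippocampus array 2 or 3 or cortex array 3 (adjusted p 0.0879 to 0.102) and with only the control arrays (adjusted p 0.161).

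Of 13 genes of immature neurons, 5 were called higher in hippocampus and 0 lower (all named genes: 6.53% and 4.83%), with a median of 0.10. Calb2 (calretinin), a calcium buffer of newborn granule cells and of some interneurons, had 9.45, 9.9971 and 10.17 in hippocampus against 8.97, 8.68 and 8.99 in cortex, a rise of 0.99 ± 0.15 (adjusted p 0.000367). Nnat (neuronatin), an imprinted gene of developing brain, had 7.91, 7.57 and 7.79 in hippocampus against 6.93, 6.93 and 6.95 in cortex, a rise of 0.82 ± 0.10. Dpysl3, which regulates growth cones, rose by 0.63, Sox11, a factor of postmitotic neurons, by 0.31, and Tubb2b, a beta tubulin, by 1.03. The Sox11 call ended without hippocampus array 3 or cortex array 2 (adjusted p 0.05 to 0.0595), and the Tubb2b call without hippocampus array 2 or cortex array 1 or 3 (adjusted p 0.0511 to 0.0684). Dcx (0.28), Gap43 (−0.52) and Stmn1 (−1.22 ± 0.46) were not called. Reln, the extracellular protein that guides layer formation, which Cajal-Retzius cells and some interneurons make, fell by 0.43. Its call ended without hippocampus array 1 or 2 or cortex array 1 or 2 (adjusted p 0.0585 to 0.0815).

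Receptors for transmitters differed gene by gene. Of 7 glutamate receptor genes, 1 was called higher and 3 lower (all named genes: 6.53% and 4.83%). Gria1, the GluA1 subunit of AMPA receptors, had 10.99, 11.15 and 10.93 in hippocampus and 9.34, 9.77 and 9.31 in cortex, a rise of 1.55 ± 0.15 (adjusted p 6.22e-06). Gria2, the GluA2 subunit, differed by 0.22 and Gria3 by −0.22, and neither was called. Cacng3, an AMPA receptor auxiliary subunit, fell by 0.65, Grm8, a presynaptic metabotropic receptor, by 0.34, and Grin1, the obligatory NMDA receptor subunit, by 0.26. These 3 calls depended on single arrays: Cacng3 lost its call when any of the 6 control arrays was left out (adjusted p 0.0502 to 0.103), Grm8 with any of them except hippocampus array 3 (adjusted p 0.06 to 0.0959), and Grin1 without hippocampus array 1 or 3 or cortex array 1 or 2 (adjusted p 0.0578 to 0.104). With only the control arrays in the fit Grin1 also lost its call (adjusted p 0.1).

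Of 7 monoamine and acetylcholine receptor genes, 1 was called higher and 3 lower (all named genes: 6.53% and 4.83%). Besides Drd1, Adrb1, the beta-1 adrenergic receptor, detected on 1 of 3 hippocampus and 3 of 3 cortex arrays, differed by −0.29 with an adjusted p that rounds to 0.05, and lost its call with the slide as a block (adjusted p 0.064) and without any control array except cortex array 1 (adjusted p 0.081 to 0.182). Chrm2, the M2 muscarinic receptor, was detected on 0 of 3 hippocampus and 2 of 3 cortex arrays, and Chrna5, a nicotinic subunit, on 1 of 3 hippocampus and 0 of 3 cortex arrays, so a fold can only be bounded. Chrm2 was at least 1.02-fold lower in hippocampus, and the bound of Chrna5 did not reach 1, so no fold is given for it although its fitted difference was called higher. The Chrna5 call ended with any omission except hippocampus array 1 (adjusted p 0.0635 to 0.0916). Chrm2 lost its call under median scaling (adjusted p 0.151) and with only the control arrays (adjusted p 0.105). Adcyap1, the peptide PACAP, was the called one of 3 neuropeptide genes, at −0.61. It lost its call without hippocampus array 1 or 2 or cortex array 2 (adjusted p 0.0536 to 0.0724). The same held with only the control arrays (adjusted p 0.103).

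Potassium channels also split. Of 12 measured, 2 were called higher and 3 lower (all named genes: 6.53% and 4.83%), with a median of −0.01. Kcnd2, the A-type channel Kv4.2 of dendrites, had 9.95, 10.35 and 10.08 in hippocampus and 9.60, 9.35 and 9.26 in cortex, a rise of 0.73 ± 0.16. Kcnn2, a small-conductance calcium-activated channel, rose by 0.59. Kcna6, a Shaker-type channel, fell by 0.51, Kcnma1, the pore of the large-conductance calcium-activated channel, by 0.72, and Kcnmb4, its neuronal auxiliary subunit, by 0.37. The Kcnma1 call ended without hippocampus array 3 or cortex array 2 or 3 (adjusted p 0.0512 to 0.0976), and the Kcnn2 call with only the control arrays (adjusted p 0.0711).

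Calcium sensors and calmodulin kinases gave 5 higher and 2 lower of 16 measured (all named genes: 6.53% and 4.83%), with a median of 0.16. Camk1d, a calmodulin kinase, rose by 0.44 and Ppp3ca, a calcineurin catalytic subunit, by 0.30, beside Hpca and Calb2. The Camk1d call ended without hippocampus array 3 or cortex array 1 or 3 (adjusted p 0.0583 to 0.0817), and the Ppp3ca call without hippocampus array 2 or cortex array 2 (adjusted p 0.0587 to 0.0642). Camkk2 had 7.52, 7.67 and 7.85 in hippocampus and 8.44, 9.20 and 8.55 in cortex, and Camk2d, a broadly made kinase isoform detected on 2 of 3 hippocampus arrays, fell by 0.27. The Camk2d call ended without hippocampus array 1 or 2 or cortex array 2 (adjusted p 0.0613 to 0.0759) and with only the control arrays (adjusted p 0.164).

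Axon guidance genes gave 6 higher and 1 lower of 21 measured (all named genes: 6.53% and 4.83%), with a median of 0.06. Nrp1, the semaphorin and VEGF coreceptor, had 10.88, 11.09 and 11.03 in hippocampus and 9.41, 9.51 and 9.38 in cortex. Both of its probes were called, each at 1.57. Sema5a, a transmembrane semaphorin, rose by 0.93 ± 0.11 and Epha7, an ephrin receptor detected on 2 of 3 cortex arrays, by 0.38. Robo1, a Slit receptor, rose by 0.46, Unc5c, a netrin receptor, by 0.76 and Ephb2, an ephrin-B receptor, by 0.39. The Robo1 call ended without hippocampus array 2 or cortex array 2 or 3 (adjusted p 0.0864 to 0.124), the Unc5c call with any omission except hippocampus array 1 (adjusted p 0.0938 to 0.198), and the Ephb2 call with any omission (adjusted p 0.0523 to 0.174). With only the control arrays the calls of Robo1 and Unc5c ended (adjusted p 0.102 and 0.124). Efna5, an ephrin-A ligand, had 7.66, 8.02 and 8.64 in hippocampus against 9.97, 10.04 and 9.94 in cortex, a fall of 1.87 on the log2 scale that ranged from −2.31 to −1.298 among slides. Epha4 (0.65) and Plxna2 (−0.40) were not called (adjusted p 0.0556 and 0.0943).

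Among cadherins and protocadherins, 1 of 12 was called higher and 5 lower (all named genes: 6.53% and 4.83%), with a median of −0.13. Pcdh20, a protocadherin, had 10.21, 10.46 and 10.36 in hippocampus and 8.35, 7.9961 and 8.22 in cortex, a rise of 2.16 ± 0.12 (adjusted p 3.37e-08). Cdh13, the membrane-anchored T-cadherin, had 8.30, 8.88 and 8.93 in hippocampus and 9.44, 9.97 and 9.29 in cortex, and Pcdh10 had 7.04, 7.13 and 7.25 in hippocampus and 7.93, 7.76 and 7.92 in cortex. They fell by 0.86 and 0.73, and the giant cadherin Fat3, detected on 2 of 3 hippocampus arrays, fell by 0.61. With only the control arrays the calls of Cdh13 and Fat3 ended (adjusted p 0.0956 and 0.0579). Cdh7 was detected on 0 of 3 hippocampus and 3 of 3 cortex arrays, at least 1.14-fold lower in hippocampus. Pcdh9 fell by 0.42, and its call ended with any omission except hippocampus array 2 (adjusted p 0.0614 to 0.173).

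Hsd11b1, which regenerates active glucocorticoid, had 9.91, 10.09 and 10.20 in hippocampus and 9.36, 9.08 and 8.95 in cortex, a rise of 0.94 ± 0.17, while Rora and Rorb fell, among 8 nuclear receptor and related genes. Of 6 immediate early genes, Nr4a2 was called higher and Egr2 lower. Egr2, an activity-induced zinc finger factor, had 6.74, 6.70 and 6.80 in hippocampus, where 1 of 3 arrays detected it and the signal lay close to background, against 8.46, 7.79 and 7.9952 in cortex, where 3 of 3 did. Its fitted difference was −1.33 ± 0.15. Of 9 Wnt genes, Nkd2, an inhibitor of Dishevelled, rose by 0.47, and Apc, part of the beta-catenin destruction complex, fell by 0.34. The Apc call ended with any omission except cortex array 3 (adjusted p 0.0584 to 0.193) and with only the control arrays (adjusted p 0.141).

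Some probes were detected in one tissue and not in the other. There were 35 detected on 3 of 3 hippocampus and 0 of 3 cortex arrays, of which 27 were called. The reverse pattern held for 194, of which 104 were called, where 11.7% of all tested probes were called. These sets were chosen by detection on the same arrays that gave the calls, so their shares called are no separate support. Detected probes in all numbered 12248 to 13592 on hippocampus arrays and 13089 to 14527 on cortex arrays, and the part of this in the 2 counts was not tested. Named genes of the first kind were Il16, Pkp2, Slc9a2, a sodium-proton exchanger, Iyd, Cd109, a protease-inhibitor-like surface protein, and Serpina3g. Slc9a2 was at least 1.34-fold and Cd109 at least 1.21-fold higher in hippocampus. Named genes of the second kind were Ido1, Cux1, Sorcs1, a sorting receptor whose 2 probes were both called, Fhod3, Cdh7, Magi1, Scube1, Pde4d and the host gene Mir124-2hg. Apart from Ido1 these bounds lay between 1.03-fold and 1.28-fold, close to the detection limit. Calls ended for Scube1 with any omission (adjusted p 0.0502 to 0.0789), for Pde4d with any except hippocampus array 3 (adjusted p 0.054 to 0.0946), for the brighter Sorcs1 probe without hippocampus array 1 or 2 or cortex array 1 or 3 (adjusted p 0.0651 to 0.098), for Magi1 without hippocampus array 3 or cortex array 1 (adjusted p 0.0595 to 0.0867), for Fhod3 without cortex array 1 (adjusted p 0.0627), and for Mir124-2hg without cortex array 3 (adjusted p 0.0507). Under median scaling the calls of Mir124-2hg (−0.07, adjusted p 0.351), Pde4d (adjusted p 0.172), Scube1 (adjusted p 0.0796) and the second Sorcs1 probe (adjusted p 0.0728) ended. With only the control arrays those of Mir124-2hg (adjusted p 0.134), Pde4d (adjusted p 0.0882) and Fhod3 (adjusted p 0.0625) ended.

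The same contrast was read on the arrays of the exposed mice, which share no sample with the controls, though they share slides and the fit. On every slide the cortex groups sat at positions A to C and the hippocampus groups at D to F. Position therefore cannot be told apart from tissue in the exposed contrasts either. Of the 1711 called probes, 1688 (98.7%) differed in the same direction between CCH hippocampus and CCH cortex, and 1217 (71.1%) were called there, which is 58.2% of the 2091 probes called under CCH (14.3% of those tested). Under CIH, 1697 (99.2%) had the same direction and 1120 (65.5%) were called, which is 71.6% of the 1564 called under CIH (10.7%). The share of all tested probes with the same direction in control and exposed mice was not counted. No probe was called in opposite directions, and 938 (54.8%) were called in one direction in controls, CCH and CIH. In the limma fit, 0 probes were called for a difference between the control and the CCH contrast and 0 for the CIH contrast, with 670 (4.57%) and 383 (2.61%) at an unadjusted p under 0.05. Without CCH hippocampus array 2 the CCH count was 1391, and without CCH hippocampus array 1 a single probe was called for a difference from the control contrast.

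**Figure D4:**
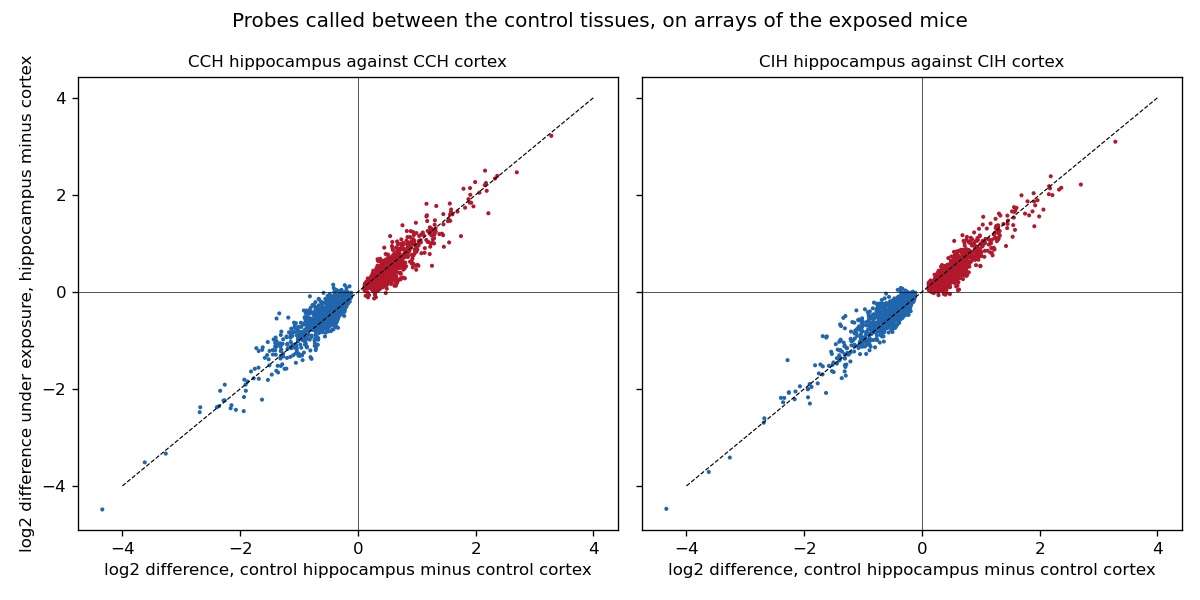
Log2 difference, hippocampus minus cortex, of the 1711 called probes in controls (horizontal) and in CCH mice (left, vertical) or CIH mice (right, vertical), with the line of equal difference dashed; red probes were called higher and blue lower in control hippocampus. Points run along the line, and 98.7% under CCH and 99.2% under CIH lie on the same side of 0 as in controls. That share was not counted over all tested probes.

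The 5 exposed arrays with high Xist went against their labels. With only the 13 arrays of low Xist in the fit, 1754 probes were called between control hippocampus and control cortex, of which 91% had the same direction under CCH and 98.6% under CIH. In that fit 819 (46.7%) were called under CCH and 832 (47.4%) under CIH, and 123 probes were called for a difference between the control and the CCH contrast. CCH cortex then rested on 1 array, assumed to vary like the other groups.

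On the exposed arrays all 20 largest rises were called in CCH and in CIH, at 0.999 to 3.22 under CCH and 1.11 to 3.10 under CIH, and of the 20 largest falls 19 were called in CCH and 20 in CIH. The one of these 20 not called in CCH was Egr2, at −0.44 under CCH and −0.54 under CIH against −1.33 in controls. Its cortex mean was 8.08 in controls, 7.12 under CCH and 7.20 under CIH. Its hippocampus mean, close to background, was 6.75, 6.67 and 6.67 in the same order. The limma test did not call the difference between the control and CCH contrasts of Egr2 (adjusted p 0.996). Of the called genes of the regional and striatal lists, Dock10 (0.31, adjusted p 0.103) and Nr4a2 (0.50, adjusted p 0.0739) were not called under CCH, and Satb1 (−0.39, adjusted p 0.0507) was not called under CIH. The CA pyramidal median was 1.44 under CCH and 1.27 under CIH, the dentate median 0.61 and 0.63, the upper layer median −0.49 and −0.39, and the striatal median −1.02 and −1.13. The median of myelin genes was −0.33 under CCH and −0.29 under CIH.

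**Figure D5:**
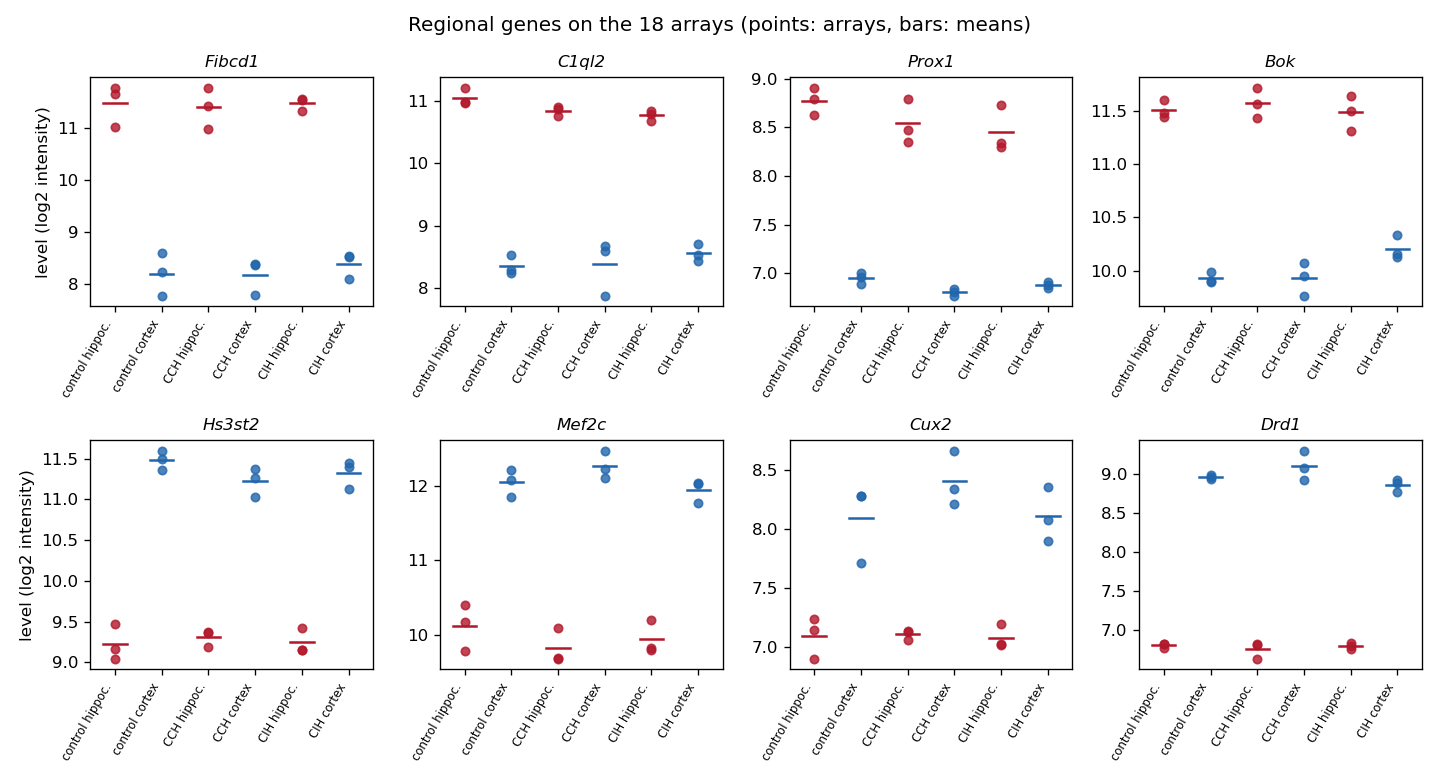
Log2 level of 8 genes named above on the 18 arrays by group (horizontal). Each point is 1 array, red for hippocampus and blue for cortex, and bars are group means. Fibcd1, C1ql2, Prox1 and Bok are higher, and Hs3st2, Mef2c, Cux2 and Drd1 lower, in hippocampus than in cortex in controls and under both exposures, with no overlap between the tissues. In controls the choice of the largest rises and falls required this of every gene shown except Cux2.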

How the data were processed

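Per the labels' protocols, biotin-labelled RNA was amplified from 100 ng of total RNA. The deposited intensity is a bead-array signal per probe without normalization, per the file headers. The deposited detection score, up to 1, ranks a probe against negative controls. BeadStudio 2.0 is named in the submitters' processing notes and 1.5.1.3 in the file header, and which made the values is unknown. A further 108 per-array columns were not used. By the deposited hybridization log there were 3 slides of 6 arrays, 1 of each group, and replicate numbers equal slides. Same-numbered control arrays deviated from their group means with correlations of 0.286, 0.245 and −0.271.

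Intensities were background-corrected and quantile-normalized with neqc (limma 3.58.1, R 4.3.3, offset 16, detection p as 1 minus the score) on the log2 scale. Control probes were left out, and probes scoring over 0.99 on 3 or more of the 18 arrays were kept, 14664 in all. A group-means model over the 18 arrays was fitted with lmFit and eBayes, two-sided, with Benjamini-Hochberg adjustment, and checked on simulated data. Zero-padded identifiers were taken to hold NCBI gene IDs and matched to GRCm38.p6 names: 82.6% of 11897 matched, against 46.0% and 46.2% when shifted by 1. It named 4406 tested probes. The other tested probes have no name here.

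The text names the 20 largest called rises and falls among genes whose tissues do not overlap (1 probe per gene, no clone names), called genes detected on all arrays of one tissue and none of the other, and members of fixed lists, each list read by the probe with the highest mean signal. Members and lists were chosen with earlier results of these data known. A fold written as at least is bounded by the lowest detected signal. Positions of probes within genes were not used here. The number of arrays limits precision. Alternatives were a slide block, only the arrays of a contrast, no background correction, median scaling, offset 50, no detection filter, detection on all 18 arrays, the deposited series values, leaving out each array, and, chosen after seeing the data, only the 13 arrays with low Xist. In the series values, 17 of 18 columns equal the intensity minus a constant, and control cortex 2 had none subtracted. Some listed genes are not reported here.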

Additional observations from a re-analysis of the deposited data

Results flagged for a closer look

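For 3 genes of the lists the tissue difference ran one way on all 3 slides in controls and the other way on all 3 slides under CCH. Slit2, a secreted axon guidance ligand, differed by 0.33 under CCH (hippocampus minus cortex) and by −0.28 in controls, a difference between contrasts of 0.61. Bcas1, a gene of newly myelinating oligodendrocytes, differed by −0.17 under CCH and 0.12 in controls, a difference of −0.29. Nkd1, a Wnt pathway inhibitor, differed by 0.03 under CCH and by −0.0924 in controls, a difference of 0.12. The limma test of each difference gave an adjusted p of 0.996, so these changes of sign did not pass the test.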

How the results depend on the processing

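Of 109 named results called in controls, none reversed under the alternatives run, and 66 kept their call and direction under every alternative that measured them. The number called between the control tissues was 1711, and most alternatives gave 1327 (probes detected on all 18 arrays) to 1905. It was 1135 with only the 6 control arrays and 828 of 6690 probes in the deposited series values, which hold fewer probes. With the slide as replicate block it was 1905, of which 1658 were among the 1711, and of the named calls Adrb1 alone was lost. Leaving out 1 array gave 1219 to 1707. The balance of 808 higher and 903 lower turned to more higher than lower under median scaling (956 and 688), without control hippocampus replicate 1 (914 and 793), with probes detected on all 18 arrays (669 and 658) and in the series values (428 and 400). Among genes not called, Enpp2 ranged from −0.83 to 0.355 leaving out 1 array. With only the control arrays 33 named calls were lost, with median scaling 13 and with no detection filter 18. Beside the genes given above with that loss, the 33 included Adrb1, Aqp4, Camk1d, Chrna5, Padi2, Pcdh9, Ppp3ca, Reln and Sox11 (adjusted p 0.0558 to 0.129). Median scaling moved the median of all probes to 0.0517 from 0.0086. Under CCH the count of 2091 became 1201 with only those arrays, 1090 in the series values and 1391 to 1912 leaving out 1 array, and it was 2825 under median scaling (1979 higher, 846 lower, against 1002 and 1089) and 2408 with the slide block. Under CIH the count of 1564 became 779 in the series values, 954 with only arrays of low Xist and 1129 to 1321 leaving out 1 array. The count for the difference between the control and CCH contrasts was 123 with only arrays of low Xist and 0 to 1 leaving out 1 array, and that for CIH was 0 throughout. The cause of these changes was not tested, except that fewer probes or arrays entered the fits named so. Of 30 list medians, 9 moved under no alternative by more than the spread between arrays. Signal close to background limits genes at levels near 6.6, where folds are bounds.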

Other observations

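Of the 1711 called probes, 1228 have no gene name here, and 30% of all tested probes have one. Of the 24 called probes at least 4-fold apart, 10 were higher and 14 lower in hippocampus, and 11 had a name. The largest fall of an unnamed probe was −4.34 and the largest rise 2.19.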
